A study of Mus musculus with 17 samples.

Results

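Complement components form a group of 9 genes of the complement system, taken from the expression table by symbol: C1qa, C1qb, C1qc, C1ra, C2, C3, C4b, Cfb and Serping1. They were 9 of the 18262 genes listed, and all 9 were measured in mouse lungs and in an injected cell product. All 9 passed the minimum level for testing, as did 10284 genes in all.

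Complement is a cascade of plasma and tissue proteins that tags particles for uptake, recruits leukocytes and can pierce membranes. In the classical pathway C1q, built from the products of C1qa, C1qb and C1qc, binds targets, and the proteases C1r and C1s bound to it cleave C4 and C2 to form an enzyme that cleaves C3. In the alternative pathway factor B, the product of Cfb, joins activated C3 to amplify the reaction, and C1 inhibitor, the product of Serping1, blocks C1r and C1s. The liver makes much of the plasma pool of several components, tissue macrophages are a known source of C1q, and interferon-gamma is a known inducer of several component genes.

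Lungs came from C57BL/6 mice in 4 groups of 4 libraries. Naive mice without treatment are called naive_untreated, and naive mice given IL12-GEMy cells are called naive_GEMy. Mice with tumors are called tumor_untreated and tumor_GEMy in the same way. Tumors were started with 500000 cells of M3-9-M, a mouse rhabdomyosarcoma line carrying firefly luciferase and mCherry, placed in the gastrocnemius, a calf muscle far from the lung. The treatment was 8000000 IL12-GEMy cells, genetically engineered myeloid cells that secrete interleukin-12, given into a vein on day 12 after tumor inoculation. Lungs were taken on day 15, which was 3 days after the cells. The cell product, IL12-GEMy cells by its title, was 1 library of bone marrow after lentiviral transduction, for which SCF, FLT3L and IL-6 are also named. By its title the series concerns the pre-metastatic niche, meaning lung tissue that a tumor elsewhere may alter before any spread. Separate mice behind the 4 libraries of each group are not stated in the labels, so every p-value refers to the spread of these libraries, which may be partly technical. The labels of the tumor libraries carry a further number, 1 in every untreated and 2 in every treated one, whose meaning is not given and which cannot be told apart from the treatment. A letter code follows it that differs between the libraries of a group (BL, NC, TL and BR in tumor_untreated, NC, BL, TR and TL in tumor_GEMy) and is not explained either.

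Depth recovered from the steps of the values was 27566841 to 36815046 reads per lung library and 31111315 for the product. The values are FPKM, fragments scaled to the kilobases of gene span and to library depth, where the span includes introns. The summed level of 10 interferon-gamma response genes was 45.4 to 49.5 FPKM in naive_untreated, 320.6 to 396.9 in naive_GEMy and 370.3 to 466.2 in tumor_GEMy. In tumor_untreated it was 87.6, 155.4, 214.6 and 274.3 FPKM, so replicate 1 of this group stood lowest. Erythroid genes summed to 157.6 to 9677 FPKM over the lungs, with the highest value in tumor_untreated replicate 4. Lungs were pieces of whole tissue, in which fewer cells of a type and less RNA per cell cannot be told apart.

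The genes lie on 4 chromosomes of the mouse genome (build GRCm38, named mm10 by the submitters; whole-gene positions on the minus strand unless stated). C1qa (chr4:136895916-136898844), C1qc (chr4:136889802-136892914) and C1qb (chr4:136880126-136886200) are neighbours within 18.72 kb. Cfb (chr17:34856374-34862514) and C2 (chr17:34862602-34882100) are 87 bases apart, and C4b (chr17:34728381-34743897) is 112.5 kb away from Cfb. C3 (chr17:57203967-57228136) lies elsewhere on that chromosome, C1ra (chr6:124512621-124523440) is on the plus strand, and Serping1 is at chr2:84765360-84775429. In the GENCODE annotation a read-through gene, Gm20547, overlaps Cfb and C2 on the same strand, Zbtb12 overlaps C2 on the opposite strand, and the strand setting of the authors' counting is not given in the sources used here. C4b shared 34.57% of its 50-base transcript words with C4a, and C1ra shared 48.02% with C1rb. These near-identical copies were listed at no more than 0.0584 FPKM (C4a) and 0.0444 FPKM (C1rb) in any lung, so how reads were divided within these pairs is uncertain.

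RefSeq promoter windows on GRCm38.p6, 250 bases before to 50 bases after the gene start, were matched for 4 of the 9 genes. All 4 are shown, as those matched, so that the letters near the start of the gene can be read beside the values. Capitals mark matches on either strand to 4 motif strings: the gamma-activated site TTCNNNGAA, the core of the interferon-stimulated response element (GAAA, any 2 bases, GAAA), a C/EBP string TTGCNNAA and a PU.1 (ETS) string GAGGAA. C1qb is at chr4:136886151-136886450 (minus), C1qc at chr4:136892865-136893164 (minus), C1ra at chr6:124512371-124512670 (plus) and C3 at chr17:57228087-57228386 (minus).
C1qb: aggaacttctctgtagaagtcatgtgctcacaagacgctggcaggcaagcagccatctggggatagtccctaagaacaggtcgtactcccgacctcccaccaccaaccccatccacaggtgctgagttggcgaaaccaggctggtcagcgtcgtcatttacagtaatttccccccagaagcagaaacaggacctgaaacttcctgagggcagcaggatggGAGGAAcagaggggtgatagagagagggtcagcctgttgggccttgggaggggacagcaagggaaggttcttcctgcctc
C1qc: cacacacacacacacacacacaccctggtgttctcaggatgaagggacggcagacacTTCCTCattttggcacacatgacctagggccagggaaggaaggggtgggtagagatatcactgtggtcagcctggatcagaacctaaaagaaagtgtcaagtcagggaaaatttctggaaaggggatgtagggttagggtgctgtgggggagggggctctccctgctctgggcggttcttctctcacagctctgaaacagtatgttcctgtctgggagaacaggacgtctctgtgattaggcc
C1ra: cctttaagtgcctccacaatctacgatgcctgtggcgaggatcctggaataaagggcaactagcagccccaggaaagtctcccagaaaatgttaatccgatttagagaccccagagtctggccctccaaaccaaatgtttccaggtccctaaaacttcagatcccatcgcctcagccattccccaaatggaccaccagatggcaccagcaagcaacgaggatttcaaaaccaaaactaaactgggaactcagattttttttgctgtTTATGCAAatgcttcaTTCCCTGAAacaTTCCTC
C3: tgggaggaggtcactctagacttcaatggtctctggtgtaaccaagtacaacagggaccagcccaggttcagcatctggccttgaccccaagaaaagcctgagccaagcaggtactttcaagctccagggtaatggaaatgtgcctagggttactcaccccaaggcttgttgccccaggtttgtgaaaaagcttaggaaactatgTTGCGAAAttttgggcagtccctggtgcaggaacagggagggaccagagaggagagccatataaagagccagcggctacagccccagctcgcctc
The PU.1 string, PU.1 being a transcription factor of macrophages, was found in C1qb, C1qc and C1ra, and in 28.3% of 32851 windows of the same length. The C/EBP string was found in C1ra and C3 and in 10.8% of windows. The gamma-activated site, a DNA element of the interferon-gamma response, was found in C1ra and in 8.3% of windows. With the first base of the gene counted as 0, the 3 matches in C1ra start at 16, 32 and 44, inside the gene. The response element core was found in none of these 4 windows and in 3.44% of all. No 2 matches in these windows overlapped.

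Levels were set beside each other between genes only as RPM (reads scaled to library depth) per exonic kb. Exonic length was the union of all annotated exons of a gene. Whether reads in introns were counted is not given in the sources used here, so the order of the genes depends on this length. Serping1 and C3 stood highest in every lung group. In naive_untreated lungs Serping1 was at 231.1 ± 12.2 and C3 at 198.1 ± 17.3 RPM per exonic kb (SD, n = 4), and their libraries overlapped. C1ra (45.8 ± 1.32), C4b (42.7 ± 3.58), C1qa (40.8 ± 2.43) and C1qb (37.3 ± 3.04) followed on the same scale, and each overlapped the next in this order. Cfb was at 21.2 ± 1.10, C1qc at 15.9 ± 1.01 and C2 at 12.5 ± 0.752 per exonic kb, with no overlap between these 3 neighbours. In tumor_GEMy lungs C3 (278.1 ± 23.6) stood above Serping1 (247.4 ± 20.5), again with overlapping libraries, and C1qb (98.2 ± 2.15) and C1qa (91.3 ± 5.23) came next on this scale, above C4b (69.4 ± 3.83) and C1ra (62.1 ± 3.20). C2 was lowest of the 9 in every lung group.

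**Figure D1:**
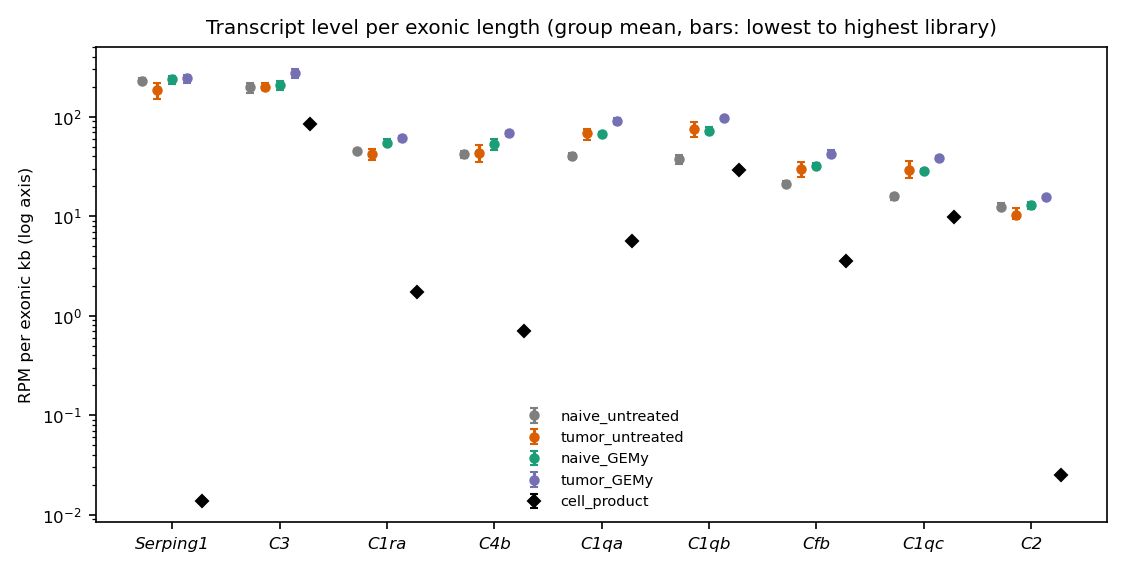
RPM per exonic kb on a log axis for the 9 genes, ordered by the mean in naive_untreated lungs; points are group means of 4 lungs or the 1 product library, and bars run from the lowest to the highest library. Serping1 and C3 sit above the other genes in all 4 lung groups, and the product point lies below the lung points of each gene.

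With the tumor alone (tumor_untreated against naive_untreated), the 3 C1q chains and Cfb rose and C2 and Serping1 fell, while C1ra, C3 and C4b did not pass the test. In this comparison 44% of all genes tested were called, 16.9% higher and 27.2% lower, beside 4 and 2 of the 9. After median-of-ratios scaling that balance turned, to 2416 genes higher and 1751 lower, from 1733 and 2797. With cells in naive mice (naive_GEMy against naive_untreated), the C1q chains, Cfb and C1ra rose, 5 of 9, and none fell, where 7.1% of all genes were called, 5.6% higher and 1.5% lower. With cells in tumor-bearing mice (tumor_GEMy against tumor_untreated), all 9 rose, where 6.73% of all genes were called, 3% higher and 3.72% lower. The median log2 fold change of the 9 was 0.02, 0.30 and 0.47 in these 3 comparisons, and that of all genes tested was -0.05, -0.02 and -0.01. The first and the second comparison share the naive_untreated libraries. The first and the third share the tumor_untreated libraries, with opposite sign. Low values in tumor_untreated thus enter both as a fall with the tumor and as a rise with cells.

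Against naive_GEMy, tumor_GEMy lungs had 7 of the 9 higher, all but C1ra and Serping1, and none lower, where 13.2% of all genes were called, 4.03% higher and 9.17% lower. Median-of-ratios scaling turned this balance too, to 543 genes higher and 396 lower, from 414 and 943. Against naive_untreated, tumor_GEMy lungs had 8 of the 9 higher, all but Serping1, where 39.3% of all genes were called, 13.6% higher and 25.6% lower, or 1993 higher and 1363 lower after that scaling. The median log2 fold change of the 9 was 0.38 and 0.69 in these comparisons, and that of all genes -0.05 and -0.07. The interaction, the change with cells in tumor-bearing mice minus that in naive mice, was called for C2 (higher) and C1qb (lower), where 6.26% of all genes were called, 1.04% higher and 5.22% lower.

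Tests were limma on log2(FPKM + 0.5) over all 16 lungs with Benjamini-Hochberg adjustment over all 10284 genes. Fitted to only tumor_GEMy and tumor_untreated, 4 of the 9 remained called (C1ra, C2, C3 and C4b), with adjusted p of 0.0720 to 0.123 for the others, while 210 genes in all were called, against 692. Without tumor_untreated replicate 1 the interaction was called for 8 of the 9, all but Cfb, against 2 with all libraries, while 1236 genes in all were called, against 644. With the level of hemoglobin genes as a covariate, 1 of the 9 (C3) was called between tumor_GEMy and naive_GEMy, while 151 genes in all were called, against 1357. The log2 values of the 6 members that lost their call in that fit were 0.28 (C2) to 0.48 (C1qc and C4b). Without the covariate they were 0.22 (C2) to 0.43 (C1qb and C1qc). Erythroid genes summed to 157.6 to 508.5 FPKM in naive_GEMy and 487.7 to 3849 in tumor_GEMy. The covariate and this comparison thus cannot be fully told apart. Without tumor_GEMy replicate 2 the members called in this comparison were 4, while 891 genes in all were called.

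Between lungs that both received cells, tumor_GEMy stood above naive_GEMy by a log2 value of 0.42 for C1qa, 0.43 for C1qb and C1qc, 0.42 for C3, 0.38 for C4b, 0.37 for Cfb and 0.22 for C2, with no overlap of libraries for these 7. C1ra (0.17, adjusted p = 0.115) and Serping1 (0.05, adjusted p = 0.763) overlapped and were not called, and C1ra was called after median-of-ratios scaling (adjusted p = 0.0354). The C2 call (adjusted p = 0.0339) was lost without any 1 tumor_GEMy library or without naive_GEMy replicate 1, 3 or 4 (0.0559 to 0.0851). That of C4b (0.0356) was lost without replicate 1, 2 or 4 of naive_GEMy or replicate 1, 2 or 3 of tumor_GEMy (0.0664 to 0.0850). The Cfb call (0.0214) was lost without naive_GEMy replicate 3 (0.0553) or tumor_GEMy replicate 2 (0.0639). Against naive_untreated the largest values were 1.33 for C1qb, 1.252 for C1qc, 1.14 for C1qa and 0.96 for Cfb, followed by 0.69 for C4b, 0.48 for C3, 0.42 for C1ra and 0.27 for C2.

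**Figure D2:**
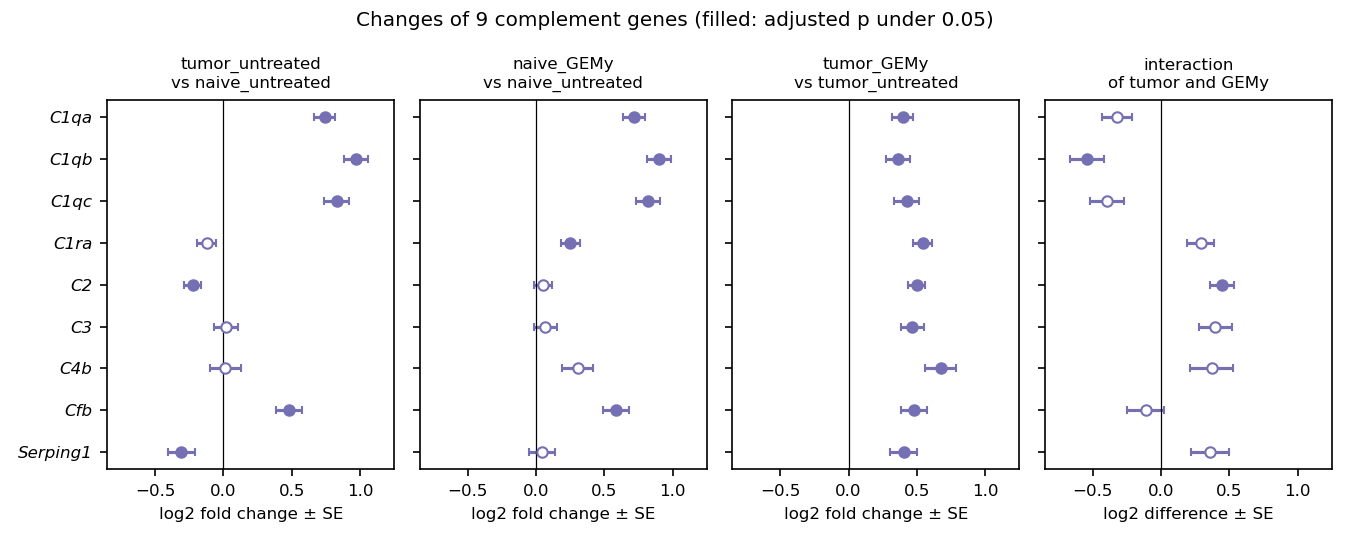
Log2 fold change of each gene with its standard error in 3 comparisons, and the interaction as a log2 difference; filled points passed an adjusted p of 0.05. The C1q chains lie between 0.72 and 0.97 for either exposure alone, and the 9 values for cells in tumor-bearing mice lie between 0.36 and 0.67.

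C1qa encodes the A chain of C1q, the molecule that recognises antibody and other targets. It was at 14.3, 15.1, 13.4 and 15.2 FPKM in naive_untreated lungs and at 20.7, 24.9, 25.9 and 27.0 FPKM in tumor_untreated lungs. It was at 24.7, 23.2, 23.5 and 25.1 FPKM in naive_GEMy and at 32.5, 32.9, 29.9 and 34.3 FPKM in tumor_GEMy. Every naive_untreated library was below, and every tumor_GEMy library above, all the others, while tumor_untreated and naive_GEMy overlapped. With the tumor the mean of 14.5 ± 0.863 FPKM became 24.6 ± 2.78, a rise of 0.74 on the log2 scale (SE 0.08, adjusted p = 3.23e-06). It rose to 24.1 ± 0.961 with cells in naive mice (0.72, SE 0.08, adjusted p = 9.61e-06). In tumor-bearing mice given cells it rose further to 32.4 ± 1.86 (0.39, SE 0.08, adjusted p = 0.00498).

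C1qb, the B chain, had the largest log2 fold changes of the 9 genes for each exposure alone. Its values were 7.36, 6.61, 6.03 and 6.75 FPKM in naive_untreated, and 11.2, 13.1, 15.7 and 14.6 FPKM in tumor_untreated. They were 14.1, 12.2, 13.1 and 12.2 FPKM in naive_GEMy, and 17.5, 17.8, 17.0 and 17.9 FPKM in tumor_GEMy. The groups stood in the same arrangement as for C1qa, with overlap only between tumor_untreated and naive_GEMy. C1qb rose with the tumor (log2 fold change 0.97, SE 0.09, adjusted p = 6.35e-07) and with cells in naive mice (0.90, SE 0.09, adjusted p = 2.90e-06). In tumor-bearing mice given cells it rose by a log2 value of 0.36 (SE 0.09, adjusted p = 0.0186), a call lost without tumor_untreated replicate 2 (adjusted p = 0.0574) or tumor_GEMy replicate 2 (0.0552). The rise with cells was smaller in tumor-bearing than in naive mice, by -0.54 on the log2 scale (SE 0.12, interaction adjusted p = 0.0166).

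C1qc, the C chain, was at 10.1, 10.0, 8.97 and 10.4 FPKM in naive_untreated and 15.2, 17.4, 22.2 and 17.4 FPKM in tumor_untreated lungs. Its naive_GEMy values were 18.4, 16.8, 18.7 and 17.3 FPKM and its tumor_GEMy values 25.4, 23.6, 23.4 and 24.4 FPKM. Again only tumor_untreated and naive_GEMy overlapped. The log2 fold change was 0.83 (SE 0.09, adjusted p = 3.98e-06) with the tumor, 0.82 (SE 0.09, adjusted p = 9.61e-06) with cells in naive mice and 0.42 (SE 0.09, adjusted p = 0.0076) with cells in tumor-bearing mice. The interaction was -0.39 for C1qc (adjusted p = 0.0794) and -0.32 for C1qa (adjusted p = 0.104), neither called. Without tumor_untreated replicate 1, the library lowest in interferon-gamma response genes, both were called (adjusted p = 0.0124 and 0.00804).

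The 3 chains are assembled in equal numbers in the C1q protein, so their transcript ratios were set beside each other per exonic kb. C1qb to C1qa was 0.916 ± 0.0721 in naive_untreated, 1.10 ± 0.0710 in tumor_untreated, 1.06 ± 0.0768 in naive_GEMy and 1.08 ± 0.0405 in tumor_GEMy (SD, n = 4). The naive_untreated libraries did not overlap those of tumor_untreated (exact permutation p = 0.0286, the smallest 4 against 4 allows, adjusted p = 0.114 over 16 ratio tests). C1qc to C1qa was 0.390 ± 0.0111 in naive_untreated and 0.428 ± 0.0223 in tumor_GEMy lungs. The exonic lengths used were 1040 bases for C1qa, 1088 for C1qb and 1931 for C1qc. The size of a ratio depends on these lengths, while its change between groups does not. C1ra to Serping1, protease to inhibitor, was 0.198 ± 0.00636 in naive_untreated, 0.226 ± 0.0138 in tumor_untreated, 0.230 ± 0.0123 in naive_GEMy and 0.251 ± 0.0105 in tumor_GEMy. None of the 16 two-sided exact tests on 4 such ratios passed the adjustment, and 3 of them stood at the smallest p this design allows. The adjustment could be passed only if most of the 16 stood at that smallest p. These tests therefore cannot show that the ratios were stable.

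C1ra encodes C1r, the protease that activates C1s inside the C1 complex. It was at 13.1, 12.6, 12.2 and 12.6 FPKM in naive_untreated, 13.0, 11.1, 12.1 and 10.2 FPKM in tumor_untreated, and 15.1, 14.8, 16.4 and 14.3 FPKM in naive_GEMy. In tumor_GEMy it was at 17.5, 17.4, 17.7 and 15.8 FPKM. Libraries of mice given cells stood above all libraries of untreated mice, and the 2 untreated groups overlapped, as did the 2 treated groups. The C1ra mean was 11.6 ± 1.21 FPKM in tumor_untreated and 17.1 ± 0.882 FPKM in tumor_GEMy, a rise of 0.54 on the log2 scale (SE 0.07, adjusted p = 0.000265). In naive mice its rise from 12.6 ± 0.362 to 15.1 ± 0.873 was called narrowly (0.25, SE 0.07, adjusted p = 0.0389). That call was lost on leaving out any 1 library of either group (adjusted p 0.0523 to 0.107), tumor_untreated replicate 2 (0.0501) or tumor_GEMy replicate 2 (0.0531), after quantile normalization (0.0893) and with hemoglobin as a covariate (0.109). With the tumor alone the log2 value was -0.12 (adjusted p = 0.172), and without tumor_untreated replicate 1 it was called at -0.17 (adjusted p = 0.0443).

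C4b encodes C4, the first substrate of C1s. Its values were 15.0, 16.7, 14.1 and 16.8 FPKM in naive_untreated and 19.2, 12.8, 17.9 and 14.0 FPKM in tumor_untreated, where the spread between libraries was wider. They were 19.4, 19.6, 21.9 and 17.0 FPKM in naive_GEMy and 26.5, 25.8, 26.2 and 23.4 FPKM in tumor_GEMy. All tumor_GEMy libraries stood above all the others, and the untreated groups overlapped fully. C4b had the largest log2 fold change of the 9 with cells in tumor-bearing mice, 0.67 (SE 0.11, adjusted p = 0.00165). In naive mice the log2 value was 0.30 (SE 0.11, adjusted p = 0.129), not called although the groups did not overlap, and it was called in a fit to these groups alone (adjusted p = 0.0424). Between tumor_untreated and naive_untreated the value was 0.01 (SE 0.11, adjusted p = 0.936).

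C2 encodes the protease that pairs with C4 in the enzyme that cleaves C3, and its level was the lowest of the 9. It was at 2.36, 2.48, 2.41 and 2.699 FPKM in naive_untreated and 2.40, 1.93, 2.02 and 1.89 FPKM in tumor_untreated. It was at 2.64, 2.78, 2.63 and 2.33 FPKM in naive_GEMy, and its 4 tumor_GEMy values, 3.06, 3.15, 3.09 and 3.11 FPKM, lay close together. The tumor_GEMy libraries were above all others, and the other groups overlapped, with 3 of 4 tumor_untreated libraries below every naive one. C2 fell with the tumor by 0.23 on the log2 scale (SE 0.06, adjusted p = 0.00978), and it rose with cells in tumor-bearing mice by 0.50 (SE 0.06, adjusted p = 0.000257). In naive mice it was at 0.05 (SE 0.06, adjusted p = 0.713). The effect of cells was thus larger in tumor-bearing than in naive mice, by 0.45 on the log2 scale (SE 0.09, interaction adjusted p = 0.00842). The fall with the tumor was not called after median-of-ratios scaling (adjusted p = 0.0697) or with hemoglobin as a covariate (0.0629).

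C3 encodes the central component on which the pathways meet. It was at 42.3, 42.4, 37.4 and 46.4 FPKM in naive_untreated, 46.4, 39.6, 43.8 and 40.8 FPKM in tumor_untreated, and 43.7, 44.2, 49.1 and 39.9 FPKM in naive_GEMy. In tumor_GEMy it was at 59.5, 52.8, 65.1 and 59.4 FPKM. The first 3 groups overlapped, and every tumor_GEMy library was above them. With cells in tumor-bearing mice the C3 mean of 42.7 ± 3.07 FPKM became 59.2 ± 5.03, a rise of 0.47 on the log2 scale (SE 0.09, adjusted p = 0.00349). The values for the tumor alone (0.02, SE 0.09, adjusted p = 0.879) and for cells in naive mice (0.07, SE 0.09, adjusted p = 0.714) were not called, and their signs turned under quantile normalization. The interaction for C3 was 0.40 (SE 0.12, adjusted p = 0.065), not called in the main fit. It was called in 7 of 28 alternatives. Among these were quantile normalization (adjusted p = 0.0374), hemoglobin as a covariate (0.0334) and array weights (0.0161), each with all libraries.

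Cfb encodes factor B, the protease of the alternative pathway. Its values were 9.98, 9.44, 9.24 and 10.3 FPKM in naive_untreated and 11.6, 12.2, 16.1 and 15.8 FPKM in tumor_untreated. They were 15.7, 15.4, 14.2 and 14.3 FPKM in naive_GEMy and 18.01, 21.4, 18.4 and 19.9 FPKM in tumor_GEMy. As for the C1q chains, naive_untreated was lowest, tumor_GEMy highest, and tumor_untreated and naive_GEMy overlapped. The log2 fold change was 0.48 (SE 0.10, adjusted p = 0.00106) with the tumor, 0.59 (SE 0.10, adjusted p = 0.000729) with cells in naive mice and 0.48 (SE 0.10, adjusted p = 0.00558) with cells in tumor-bearing mice. The interaction was -0.11 (SE 0.14, adjusted p = 0.704). C2, whose gene lies next to Cfb, was called in the opposite direction with the tumor.

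Serping1, the C1 inhibitor, had values of 56.4, 51.9, 50.2 and 54.9 FPKM in naive_untreated and 50.5, 43.6, 43.9 and 35.2 FPKM in tumor_untreated. It was at 59.0, 54.8, 57.2 and 49.7 FPKM in naive_GEMy and 61.0, 56.0, 60.6 and 50.9 FPKM in tumor_GEMy. Tumor_untreated was the low group, overlapping naive_untreated and naive_GEMy by its replicate 1, and the other 3 groups overlapped each other. Serping1 fell with the tumor by 0.31 on the log2 scale (SE 0.10, adjusted p = 0.0176) and was higher by 0.40 with cells in tumor-bearing mice (SE 0.10, adjusted p = 0.0174). The mean in tumor_GEMy, 57.1 ± 4.73 FPKM, differed from 53.4 ± 2.81 in naive_untreated by a log2 value of 0.10 (SE 0.10, adjusted p = 0.454). The fall was not called after median-of-ratios scaling (adjusted p = 0.0717), with hemoglobin as a covariate (0.0969), without naive_untreated replicate 1 (0.0501) or without tumor_untreated replicate 4 (0.0628). The rise was not called without tumor_GEMy replicate 1 (0.0508) or 3 (0.0555).

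**Figure D3:**
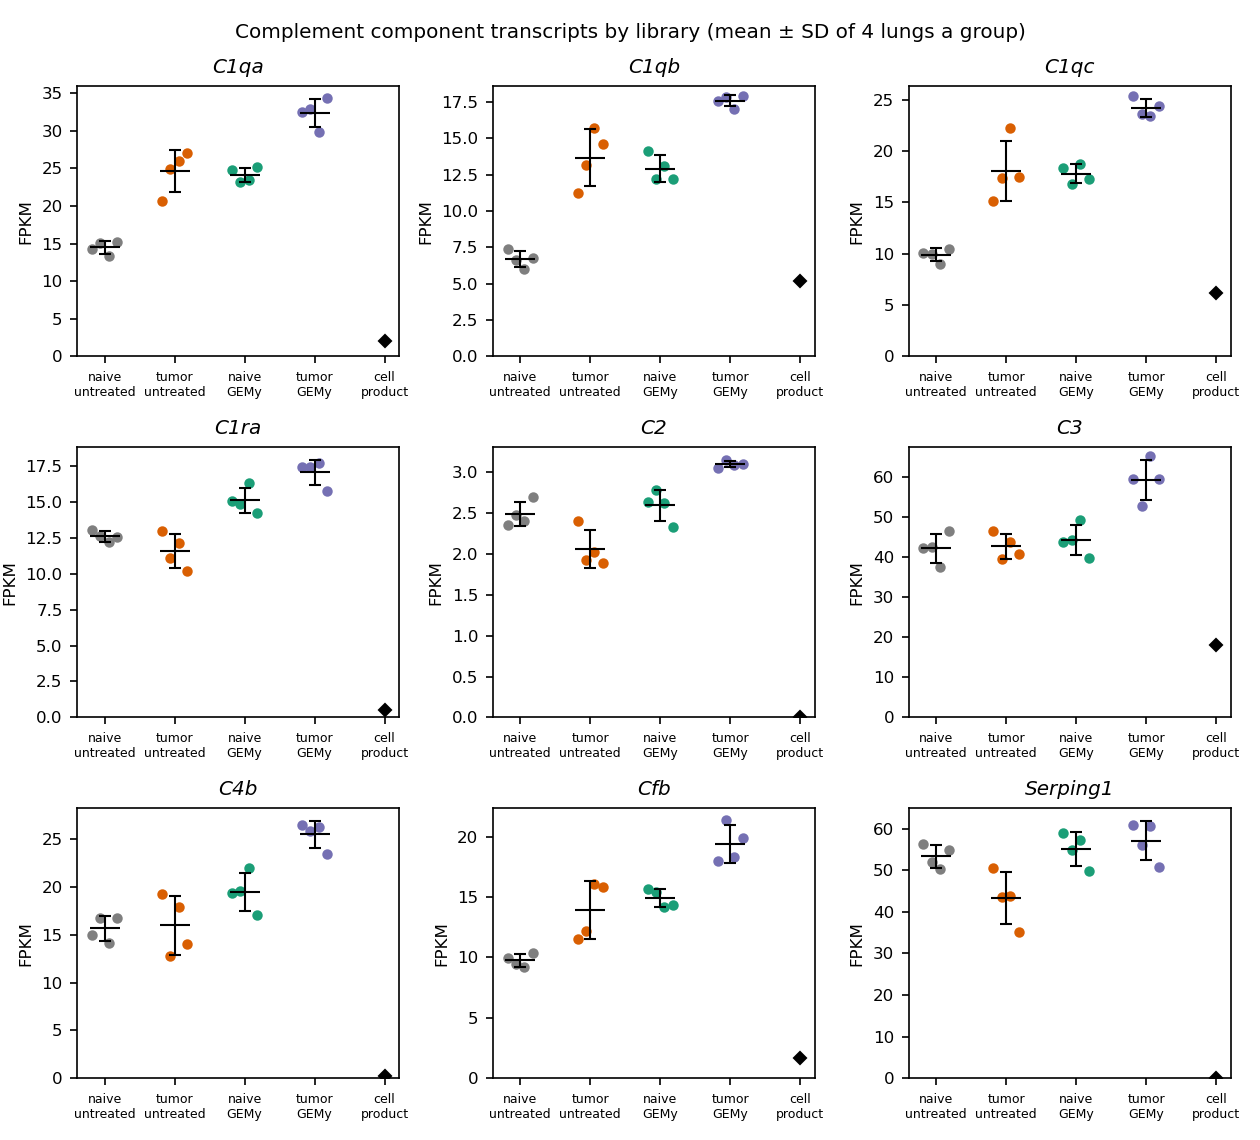
FPKM of each gene in every library, with mean and SD bars for the 4 lungs of a group and a diamond for the 1 product library. For C1qa, C1qb, C1qc and Cfb the tumor_untreated and naive_GEMy points overlap between the other lung groups, while C2, C3 and C4b are set apart in tumor_GEMy only.

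Profiles of log2 FPKM over the 16 lungs, centred on each gene's mean, were compared by their root mean square distance, which describes these libraries and shares their depth and group structure. C1qb and C1qc were closest to each other (0.0808), and C1qa was at 0.1002 from C1qc. Cfb, a gene of another chromosome and pathway branch, was at 0.130 from C1qa. C1ra was at 0.103 from C2 and 0.137 from C4b, while C1qb and Serping1 were farthest apart (0.544). Distances were not scaled to the spread of a gene. The SD of the members over the lungs ran from 0.198 (C2) to 0.520 (C1qb), so equal distances do not mean equal likeness.

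Among genes outside the group, C1s1, the partner protease of C1r, was nearest to C1ra (0.0713), C2 (0.0907) and Serping1 (0.0943). C1ra was followed by Sfrp1 and Parp3, C2 by Sfrp1 and Ifi27, and Serping1 by Ifi27 and Il17rc. The genes nearest to C1qa were Irf9 (0.126), Rnf19b and Sting1, and those nearest to Cfb were Sting1 (0.101), Rnf19b and Herc6. C1qb was nearest to Nampt (0.155), Oas1g and Dnase1l3, and C1qc to Top2a (0.142), Oas1g and H2-D1. C3 was nearest to Hyou1 (0.127), Apod and Nid1, and C4b to Xcr1 (0.169), Cdc20 and C1s1.

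The rest of the pathway was read from a list of 47 other complement genes, of which 42 were in the table and 24 passed the minimum. With the tumor alone 8 rose and 10 fell, and the median log2 value was -0.04, beside -0.05 over all genes. Of all genes tested 16.9% rose and 27.2% fell. By role, 7 of 9 genes tested from the receptor list rose and none fell. This list was broad and also held Cd93, Calr and C1qbp, of which Calr and C1qbp were not called. C5ar1, the receptor of the C5a fragment, went from a range of 1.09 to 1.68 FPKM in naive_untreated to 4.92 to 6.27 in tumor_untreated (log2 fold change 1.73, SE 0.16, adjusted p = 6.35e-07). Itgam, the alpha chain of complement receptor 3, went from 0.711 to 0.840 FPKM to 2.96 to 4.94 (1.76, SE 0.16, adjusted p = 9.68e-07). C3ar1, the C3a receptor, rose by a log2 value of 0.77 and Itgb2, the beta chain shared by such receptors, by 1.33, and C5ar2, Itgax and Cd93 rose by 0.36 to 0.63. Neutrophil markers moved with them: 8 of 8 were higher, and their sum was 63.6 to 98.4 FPKM in naive_untreated and 1267 to 2297 in tumor_untreated. Also higher were 8 of 8 monocyte and 6 of 8 T and NK cell genes, with none lower. The part of any of these lists in these rises was not tested.

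Of 6 regulators tested with the tumor, 5 fell and none rose, where 27.2% of all genes tested fell and 16.9% rose. Among them were Cd55, Cd59a, Clu and Vtn, which restrain the C3 enzymes or the membrane attack complex, with log2 values of -0.24 to -0.39. All 3 terminal components tested fell: Hc, the gene of C5 (log2 value -0.40, SE 0.09, adjusted p = 0.00281), C6 (-0.19) and C7 (-0.52). Cfp, the gene of properdin, which stabilises the alternative pathway enzyme, rose by 1.15 (SE 0.13, adjusted p = 7.12e-06), and C1s1 fell by 0.26 (SE 0.07, adjusted p = 0.00979). Among the calls of genes named here, those of C1s1, C6, Cd55 and Vtn were lost after median-of-ratios scaling, and those of C1s1, Cd59a and Vtn with hemoglobin as a covariate. The Vtn call was also lost on leaving out 4 of the 16 lungs in turn. Fibroblast markers moved the same way as these falls, 5 of 9 lower and 1 higher. They summed to 223.7 to 317.6 FPKM in naive_untreated and 125.8 to 195.8 in tumor_untreated. Also lower were 7 of 7 airway, 6 of 8 alveolar type 2, 4 of 8 endothelial, 4 of 4 mesothelial and 4 of 5 B cell genes. In these further lists no gene was called higher. The part of any of these lists in the falls was not tested.

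With cells in naive mice 1 of the 24 other genes was called, Itgb2 (log2 fold change 0.65, SE 0.13, adjusted p = 0.00558). Over all genes tested 7.1% were called there. With cells in tumor-bearing mice C1s1, Cfd and Calr rose and C5ar1 and C5ar2 fell, where 3% of all genes rose and 3.72% fell. C1s1 rose from a range of 10.9 to 14.0 FPKM to 17.1 to 19.6 (0.55, SE 0.07, adjusted p = 0.000315), beside 0.54 for its partner C1ra. C5ar2, a second C5a receptor, fell by 0.35 (SE 0.05, adjusted p = 0.000968), without overlap between the groups. Cfd, the gene of factor D, was at 32.3, 35.5, 36.7 and 90.3 FPKM in tumor_GEMy and at 27.4, 26.4, 21.6 and 20.1 FPKM in tumor_untreated. The other genes of the adipocyte list, which also holds Cfd, summed to 17.4 FPKM in tumor_GEMy replicate 4, to 10.7 to 12.6 in its other libraries and to 7.47 to 9.61 in tumor_untreated, and their part was not tested. The Cfd call (adjusted p = 0.039), that of C5ar1 (0.0359) and that of Calr (0.047) were lost on leaving out 7, 6 and 13 of the 16 lungs in turn. All 3 were also lost with no minimum, with hemoglobin as a covariate and with only the groups compared, and C5ar1 and Calr after median-of-ratios scaling and on RPM.

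Between tumor_GEMy and naive_GEMy 6 of the 24 were higher and 1, Vtn, was lower, where 4.03% of all genes were higher and 9.17% lower. The calls of C3ar1, Itgb2 and Vtn there were lost on leaving out 10, 9 and 6 of the 16 lungs in turn. Against naive_untreated, tumor_GEMy had 9 higher and 6 lower, beside 13.6% and 25.6% of all genes. The interaction was called for C1s1 (0.44) and, with a negative sign, for C5ar2 (-0.28), Itgam (-0.98) and Itgb2 (-0.90). Over all genes 1.04% were called higher and 5.22% lower for it.

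**Figure D4:**
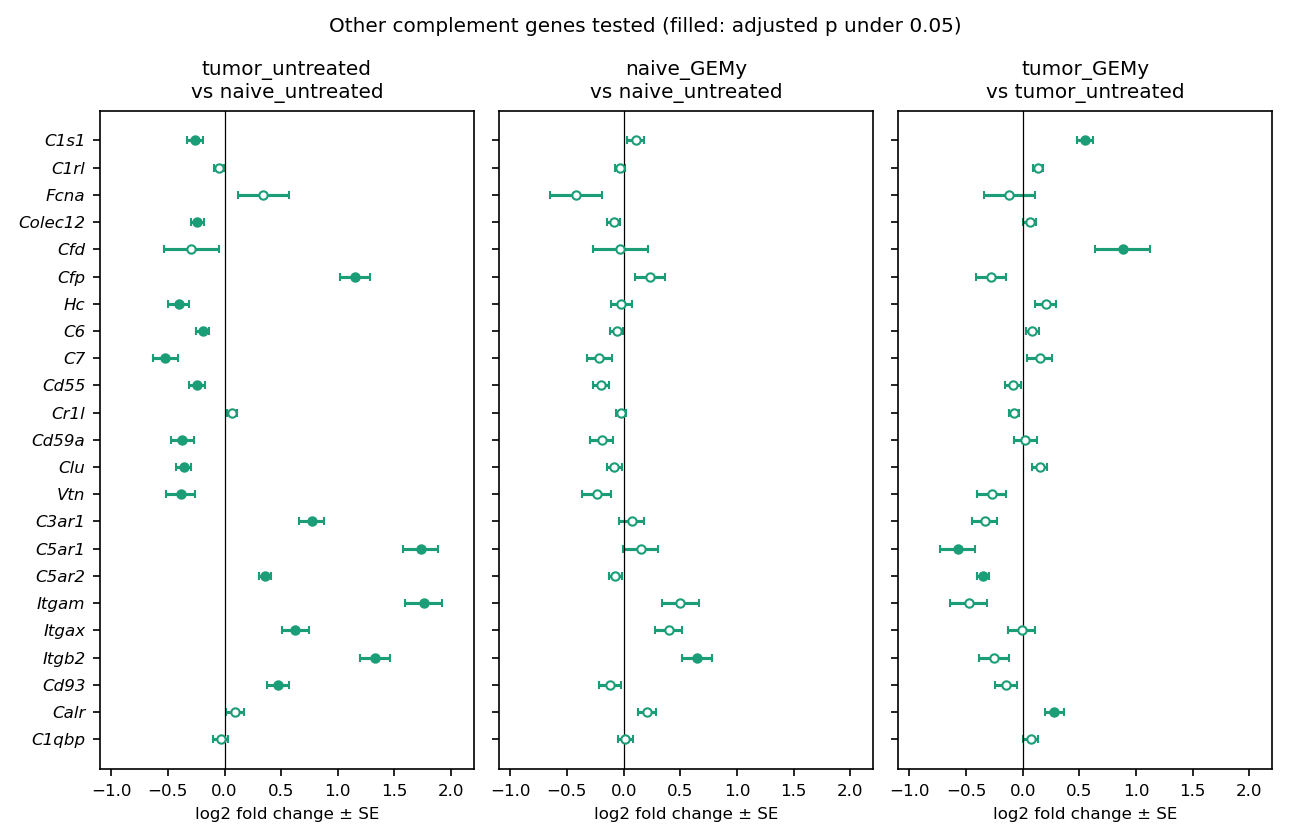
Log2 fold change and standard error of other complement genes tested, leaving out 1 that is not reported here, in 3 comparisons; filled points passed an adjusted p of 0.05. With the tumor alone most genes of the receptor list lie to the right and terminal components and most regulators to the left. Few points are filled in the panels for cells.

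Markers of cell types that can carry these transcripts were read beside the 9 genes. Over all genes tested, 16.9% were called higher and 27.2% lower with the tumor, and 5.6% and 1.5% with cells in naive mice. With cells in tumor-bearing mice these shares were 3% and 3.72%. The monocyte list was called higher for 8 of 8 genes with the tumor and for 5 of 8 with cells in naive mice, where the C1q chains and Cfb also rose. Between tumor_GEMy and tumor_untreated it was called higher for 0 and lower for 2 of 8, while all 9 complement genes rose. Its sum was 43.8 to 58.3 FPKM in naive_untreated, 96.7 to 176.4 in tumor_untreated, 78.8 to 107.0 in naive_GEMy and 102.1 to 137.8 in tumor_GEMy. The interstitial macrophage list, markers of a tissue macrophage known to express C1q, was called higher for 3 and lower for 2 of 7 with the tumor, and higher for 1 and lower for 0 with cells in naive mice. Between tumor_GEMy and tumor_untreated none of these 7 was called in either direction. All 10 genes of the list, untested ones included, summed to 206.4 to 252.6 FPKM in naive_untreated, 180.1 to 240.7 in tumor_untreated, 218.3 to 226.5 in naive_GEMy and 173.9 to 204.8 in tumor_GEMy. This sum is mostly Apoe, at 102.4 to 202.7 FPKM over the lungs, which was lower with the tumor, while Lyve1 and Cx3cr1 were among those higher. Folr2 and Ms4a7, at no more than 0.487 and 0.386 FPKM in any lung, were among those too low to be tested. The counts rest on the other genes and are not a measure of these cells alone. The alveolar macrophage list had 1 of 8 called lower with the tumor, 0 called with cells in naive mice, and 1, Chil3, called higher with cells in tumor-bearing mice (log2 value 0.63).

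The interferon-gamma response list was higher for 10 of 10 genes with the tumor, 10 of 10 with cells in naive mice and 8 of 10 with cells in tumor-bearing mice. Between tumor_GEMy and naive_GEMy none of these 10 was called, 8 of 8 neutrophil genes and 2 of 8 monocyte genes were higher, and 4 of 5 B cell genes were lower. With the tumor 6 of 8 alveolar type 2 genes, 7 of 7 airway genes, 4 of 8 endothelial genes, 4 of 4 mesothelial genes and 4 of 5 B cell genes were lower, and 6 of 8 T and NK cell genes were higher. With cells in tumor-bearing mice 2 of 8 T and NK cell genes and 1 of 7 airway genes were higher, 1 of 8 endothelial genes was lower, and none of the alveolar type 2, mesothelial or B cell genes was called. Over all genes tested the shares higher and lower were 16.9% and 27.2% with the tumor and 3% and 3.72% with cells in tumor-bearing mice. Between tumor_GEMy and naive_GEMy they were 4.03% and 9.17%. The part of the marker changes in the complement values was not tested. The hepatocyte list summed to 22.4 to 34.2 FPKM over the lungs, mostly Trf, the transferrin gene, at 21.0 to 32.3 FPKM. Of its 8 genes in the table, Trf and Cyp2e1 (0.981 to 4.30 FPKM) were tested. Trf was lower with the tumor, and neither was called with cells in naive or tumor-bearing mice. Alb, Ttr, Apoa1 and Ahsg, which define hepatocytes, were at no more than 0.113, 0.0107, 0.141 and 0.164 FPKM in any lung. Of 5 muscle genes listed for the tumor line 2 were in the table, and the 1 tested, Des, which lung muscle cells also express, was lower with the tumor.

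**Figure D5:**
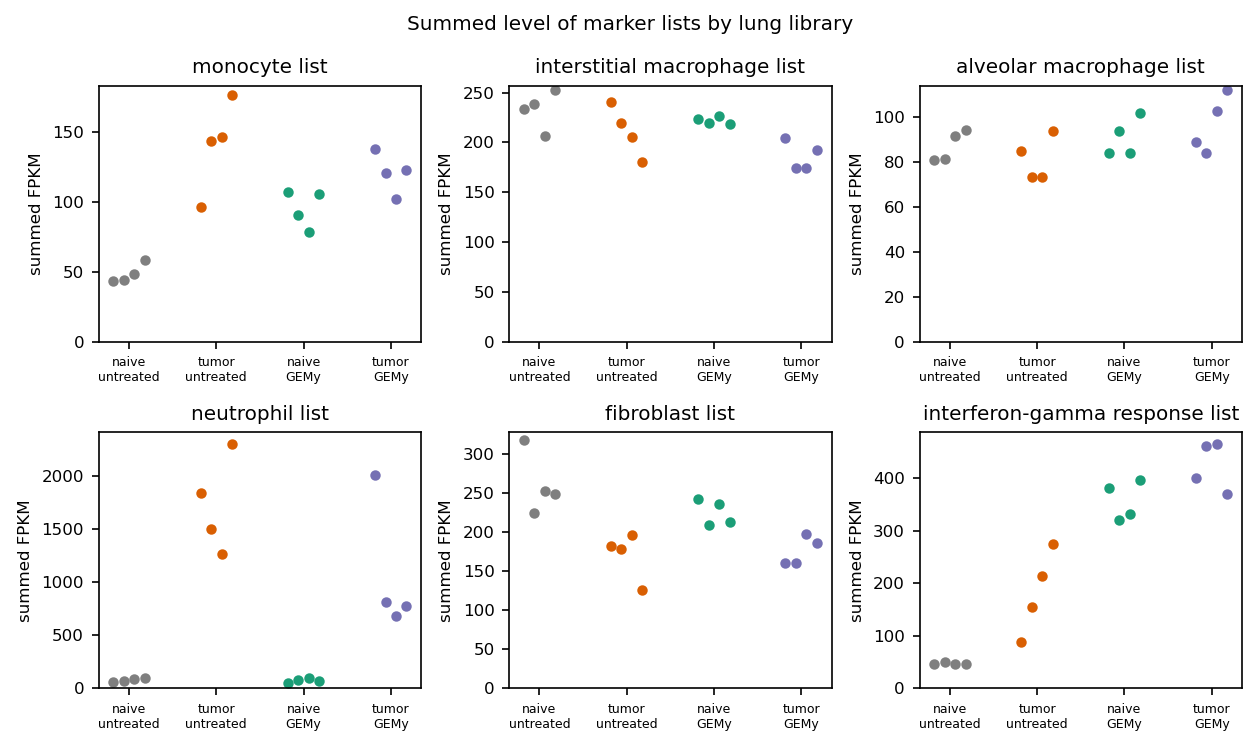
Summed FPKM of 6 marker lists in each lung library, 4 points a group. The monocyte sum is lowest in naive_untreated, the neutrophil sum is 682.2 FPKM or more in every lung with a tumor and at most 98.4 in the others, and the interferon-gamma response sum is 320.6 FPKM or more in both treated groups.

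In the cell product all 9 genes were below every lung library. Of 11461 genes at 0.5 FPKM or more in any library, 37.1% were below and 45.9% above all lungs in this 1 library. C3 was at 17.9 FPKM (95% Poisson interval 17.6 to 18.2, counting error only), C1qc at 6.12 (5.64 to 6.64), C1qb at 5.18 (4.86 to 5.51) and C1qa at 2.03 (1.75 to 2.34). Cfb was at 1.64 FPKM (1.47 to 1.84), C1ra at 0.478 (0.407 to 0.558) and C4b at 0.258 (0.214 to 0.306). C2 had 3 reads and Serping1 1 read, or 0.00495 FPKM (0.00102 to 0.0145) and 0.00319 FPKM (8.08e-05 to 0.0178).

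The product held reads of C3 and the C1q chains but close to none of Serping1, the member at the highest level per exonic kb in naive_untreated lungs. Per exonic kb the C1q chains were also in other proportions, with C1qb at 5.06 times C1qa, beside 0.868 to 1.20 over the lungs. Other complement genes above all lungs in the product included Cfp (27.8 FPKM), C3ar1 (13.9) and Itgam (13.3). C1s1 was at 0.0374 FPKM (0.0205 to 0.0628), below every lung, and Cfd, Hc, C6, C7 and Vtn had 0 reads. With 0 reads the same exact interval reaches 0.0658 FPKM for Cfd and 0.0370 FPKM for Vtn, and the floor of 3 reads stands at 0.0535 and 0.0301 FPKM. There is 1 product library, so these values have no replicate check.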

How the data were processed

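Per the labels' protocols, RNA was isolated from flash frozen lungs with TRIzol, and the aligner STAR 2.7.3a, Partek and the build mm10 come from the submitters' processing notes, which give no settings. The deposited values are FPKM made by the authors for 18262 genes. FPKM times gene span summed to the same total in every library, so introns count in the length, and 86.6 to 88.5% of values were whole reads within 0.02 of a step that gave the depth of each library; how the other reads were divided is not given in the sources used here. Reads so recovered were used for the product intervals, exact Poisson at 95%, with a floor of 3 reads.

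Lung values were tested with limma 3.58.1 (R 4.3.3) on log2(FPKM + 0.5), for genes at 0.5 FPKM or more in at least 4 of 16 lungs, with 4 group means, trend and robust moderation, 2-sided, and Benjamini-Hochberg adjustment over all genes at 0.05. Fold changes of low genes are understated by the added 0.5. Ratios used exact permutation tests. The fit was tested on simulated data. The members, the lists and the alternatives were chosen with earlier results of these data known, so no count over them is independent support. All members are named in every comparison. Genes outside the group are named from the other complement list and, for each member, as the 3 nearest by root mean square distance. For the latter, only genes tested with an SD over the lungs of at least 0.5 times that of the member were considered. Examples within the other complement list were chosen after their values were seen. Alternatives were a pseudocount of 0.1 or 1, other minimums, median-of-ratios and quantile scaling, RPM, voom on recovered reads, plain moderation, the replicate block, hemoglobin as a covariate, array weights, only the groups compared, and leaving out each library. The values of 1 other complement gene and 1 marker gene are not reported here, though they are part of the counts of their lists.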

Additional observations from a re-analysis of the deposited data

Results flagged for a closer look

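Among 36 checks of a member in a group of 4 libraries, 1 library stood far from the others, where chance gives about 1 in 20. C1ra in tumor_GEMy was at 15.8 FPKM in replicate 4, with the other 3 at 17.4 to 17.7, so its gap to the nearest library was 0.855 of the group's range, above Dixon's critical value of 0.829.

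The effect of IL12-GEMy cells differed between tumor-bearing and naive mice, by the limma interaction test over all genes, for C1qb (log2 difference -0.54, adjusted p = 0.0166) and C2 (0.45, adjusted p = 0.00842). In the same test C1s1 (0.44, adjusted p = 0.0185) had a larger effect in tumor-bearing mice. C5ar2 (-0.28, adjusted p = 0.0422), Itgam (-0.98, adjusted p = 0.0201) and Itgb2 (-0.90, adjusted p = 0.0101) had a lower value there. The C5ar2 call was lost on leaving out most single libraries.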

How the results depend on the processing

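Over 13 alternatives other than leaving out a library, 651 of 693 member results kept their direction and side of the threshold, 18 lost a call, 15 gained one and 9 changed sign. On leaving out each of 16 lungs, 817 of 864 did so, 31 lost and 10 gained a call and 6 changed sign. All sign changes were of values that did not pass the test. For the tumor alone they were C3 and C4b after quantile normalization (-0.0603 and -0.0274) and with array weights (-0.0405 and -0.168). They were also C3 without naive_untreated replicate 3 (-0.0369) or tumor_untreated replicate 1 (-0.0229), within -0.0369 to 0.0656 over the libraries left out, and C4b without naive_untreated replicate 1 (-0.00517) or 3 (-0.0338) or tumor_untreated replicate 1 (-0.0801) or 3 (-0.0450), within -0.0801 to 0.109. For cells in naive mice they were C3 and Serping1 after quantile normalization (-0.0291 and -0.0665) and with hemoglobin as a covariate (-0.00784 and -0.00990). Serping1 in tumor_GEMy against naive_untreated turned to -0.0101 after quantile normalization. The cause of these changes was not tested.

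Counts of members called moved by over 1.5 times in 3 comparisons. Between tumor_GEMy and tumor_untreated they were 4 with only the groups compared, a fit with fewer samples. Between tumor_GEMy and naive_GEMy they were 1 with hemoglobin as a covariate. For the interaction they were 5 after quantile normalization and 8 with array weights. On leaving out a library, members called were 2 to 8 for the interaction (8 without tumor_untreated replicate 1), 4 to 5 for cells in naive mice, 4 to 7 for tumor_GEMy against naive_GEMy, 8 to 8 against naive_untreated, 8 to 9 against tumor_untreated and 5 to 7 for the tumor alone.

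Of the other complement genes, those called with cells in naive mice were 3 with a pseudocount of 0.1, on RPM or with voom, 2 after median-of-ratios scaling, with the replicate block or with hemoglobin, 5 with array weights and 4 with only the groups compared. With cells in tumor-bearing mice they were 3 with no minimum or median-of-ratios scaling, 2 with hemoglobin or only the groups compared, and 13 with array weights. Between tumor_GEMy and naive_GEMy they were 4 with no minimum, 1 with hemoglobin and 12 with array weights, and for the interaction 8 with array weights. On leaving out a library they were 3 to 9 for the interaction, 1 to 3 for cells in naive mice, 4 to 7 for tumor_GEMy against naive_GEMy, 13 to 17 against naive_untreated, 2 to 7 against tumor_untreated and 17 to 18 for the tumor alone. Over all genes, median-of-ratios scaling gave 2416 higher and 1751 lower for the tumor alone, beside 1733 and 2797. It gave 543 and 396 between tumor_GEMy and naive_GEMy, beside 414 and 943, and 1993 and 1363 against naive_untreated, beside 1403 and 2635. Genes called for cells in naive mice were 2051 with array weights and 1188 with only the groups compared, beside 730, and for cells in tumor-bearing mice 2358 and 210, beside 692. Between tumor_GEMy and naive_GEMy they were 2733 with array weights and 151 with hemoglobin, beside 1357, and for the interaction 1881 with array weights, beside 644.

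Whether replicate numbers pair the libraries was not settled. Libraries of different groups were correlated on what remained after each gene's group mean was subtracted. Pairs with the same number correlated at -0.313 to 0.594 (median 0.123, 24 pairs). Those with different numbers correlated at -0.470 to 0.390 (median -0.05, 72 pairs). The median was thus higher for same-numbered libraries, while the ranges overlapped. The replicate block left the members called at 6, 5, 9, 7, 8 and 2 in the 6 comparisons, as without it. It raised the number of genes called in each, by less than 1.5 times. They were 4768 for the tumor alone, beside 4530, and 799 for the interaction, beside 644. The block ended the calls of Cfd and Calr with cells in tumor-bearing mice. With 4 libraries a group, small differences could be missed.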

Other observations

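Of the 42 other complement genes in the table, 18 lay under the minimum in the lungs. The highest of them was Cr2, the gene of complement receptor 2 of B cells, at 0.419 FPKM in 1 lung, and 13 stayed under 0.1 FPKM in every lung. Of the 42, 27 (64.3%) were below and 7 (16.7%) above all lungs in the 1 product library. The 42 had no minimum level, and some, such as Colec10 and Vsig4, counted as below with 0 reads. They are thus not a like set to the genes given next. Of 11461 genes at 0.5 FPKM or more in any library these shares were 37.1% and 45.9%.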
